A study of Mus musculus with 12 samples.

Results

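The cytosolic ribosome is built from ribosomal RNAs and a fixed set of small proteins, and the 79 mouse genes described here encode those proteins. They were chosen by name alone, from features that carry a single gene symbol: every symbol starting Rps or Rpl followed by a number and at most 1 letter a, x, y or l, together with Rplp0, Rplp1, Rplp2 and Rpsa, and without pseudogene names. They are 79 of the 28112 features of the authors' deposited table, of which 23226 carry a single name. Of the 79, 31 encode proteins of the small subunit and 48 proteins of the large subunit. Genes left out by the rule include Rps3a1, Fau and Gnb2l1 (also called Rack1), and Rps27 and Rpl30, whose exons are listed only under joined names.

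The 12 samples came from mouse small cell lung cancer, from the lines 16T, KP1 and KP22, and fell into 6 groups of 2. All 3 lines carry the genotype Trp53-/-;Rb1-/- and grow as floating spheres, and each is a single line derived from a tumour. In 16T and KP1, whose background is labelled Nfib high, cells expressed either the control shRNA shLuc or the shRNA sh2 against Nfib. KP22, labelled Nfib low, expressed either an empty vector or Nfib cDNA. The protein Nfib is one of the nuclear factor I (NFI) transcription factors, and the comparisons ask which transcripts differ where Nfib is lowered or raised. No label says whether duplicates came from separate cultures, and p-values therefore measure only the spread between these samples, which may be technical. Every mean, log2 fold change, standard error (SE) and adjusted p-value given below for 16T, KP1 and KP22 comes from the authors' deposited table, and the contrasts between lines were computed from it. Values per sample were not used here, so neither the total count of each sample nor the number of samples showing a direction is given. The words rose and fell are used where the adjusted p-value was below 0.05. In bulk RNA, fewer cells of a type and less RNA per cell cannot be told apart.

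Ribosomal proteins fold onto ribosomal RNA in the nucleolus, and the finished subunits decode mRNA (small subunit) and join amino acids (large subunit). Most of these proteins are present once in each ribosome. Their mRNAs are among the most abundant of dividing cells, and most begin with a run of pyrimidines, the 5′ terminal oligopyrimidine (TOP) tract, through which mTOR and Larp1 set their translation. Synthesis of ribosomes is also raised by Myc proteins, and Mycl is a known oncogene of small cell lung cancer.

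Promoter windows from RefSeq (build GRCm38.p6) were found for 59 of the 79 genes, 71 windows in all among 32851. The 50 bases from 30 before to 20 after the annotated start are shown for 7 genes whose values are described below, 5′ to 3′ on the gene's strand, with pyrimidine runs of at least 7 bases in capitals. They lie, in the order shown, at chr9:66946056-66946105 (plus strand), chr9:64173357-64173406 (plus), chr9:44407684-44407733 (plus), chr12:28635934-28635983 (minus), chr14:18270967-18271016 (minus), chr2:26910777-26910826 (plus) and chr9:120127736-120127785 (plus).
Rps27l: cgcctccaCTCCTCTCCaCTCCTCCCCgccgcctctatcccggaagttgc
Rpl4: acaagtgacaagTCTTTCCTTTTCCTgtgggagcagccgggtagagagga
Rps25: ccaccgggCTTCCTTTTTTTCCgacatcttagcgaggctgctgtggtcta
Rps7: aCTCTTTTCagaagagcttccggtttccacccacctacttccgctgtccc
Rpl15: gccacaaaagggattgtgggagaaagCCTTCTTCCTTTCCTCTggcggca
Rpl7a: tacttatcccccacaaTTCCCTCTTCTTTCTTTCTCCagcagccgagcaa
Rpsa: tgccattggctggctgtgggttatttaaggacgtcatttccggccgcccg
The longest run was 21 bases in Rpl7a, 17 in Rpl15 and 14 in Rpl4 and Rps25, and Rpsa had none. Runs were taken anywhere in the 50 bases, so a run is not the same as a TOP tract. Those of Rpl7a and Rpl15 span the annotated start, and those of Rps27l, Rpl4, Rps25 and Rps7 end before it.

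A pyrimidine run of at least 7 bases lay in 39 of the 71 windows of ribosomal protein genes (54.9%), against 30% of all windows of the same length. In the full windows of 300 bases, searched on both strands, CCGGAAG, the core bound by ETS factors such as GABP, was in 26 windows (36.6%, against 8.86% of all). The full palindromic NFI motif, TTGGC and GCCAA with 5 bases of any kind between them, was in 0 of the 71 windows and in 0.0365% of all. Its arm TTGGC alone, which any full motif contains, was in 35 windows (49.3%, against 46.7% of all), and TTGGCA in 5 (7.04%, against 14.1%). In 16T, where 20% of all features rose and 25.3% fell, 1 rose and 12 fell of the 27 tested genes with TTGGC, and 5 rose and 5 fell of the 29 without it. For CCGGAAG in 16T, 2 rose and 9 fell of the 24 genes with it (4 and 8 of the 32 without). For a pyrimidine run, 5 rose and 14 fell of the 36 with it (1 and 3 of the 20 without). More genes fell than rose both with and without either of these motifs. In KP1, where 17.6% of all features rose and 19.6% fell, 3 rose and 6 fell of the genes with TTGGC and 1 and 9 of those without. In KP22, where 19.5% rose and 18.8% fell, these counts were 7 and 2 with and 8 and 4 without. These are counts of letters in short windows and no test was made of them.

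Nfib itself, which checks the labels and gives the direction of each comparison, was at -1.08 ± 0.04 in 16T, -1.32 ± 0.04 in KP1 and 1.80 ± 0.04 in KP22 (log2 ± SE), or 47.2%, 40% and 349% of control. All 10 neuroendocrine markers had a mean normalized count of at least 100, and their median was 11128. Of the markers of other cells, 1 of 7 leukocyte, 2 of 7 fibroblast, 2 of 5 endothelial and 3 of 6 airway genes reached 100, and Cd3e, Col3a1, Emcn and Scgb1a1 were at 0. One feature of the authors' deposited table bears on the scale of abundant transcripts. Eef1a1, an elongation factor gene with a TOP mRNA, had a log2 fold change within 4.75e-07 of 0 in all 3 lines, and it was the only 1 of 15008 features with a mean of at least 10 that stayed within 0.005; the next, Pnpla6, reached 0.011. How Eef1a1 came to be at 0 is not given in the sources used here, and its part in the values of the ribosomal protein genes was not tested. The median of all features with a mean of at least 10 was at -0.051 in 16T, -0.020 in KP1 and 0.046 in KP22, so counts are also given with each line recentred on that median. Shares over all features were not counted with recentring or with a changed reference for the p-values. They are therefore not like for like with gene counts under those settings.

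Of the 79 genes, 75 had a mean normalized count of at least 1000 and an adjusted p-value in all 3 lines. Their means ran from 3805 for Rps27l to 60776 for Rplp0, the base of the ribosomal stalk, with a median of 23326. On the scale of mean normalized count per kb of exon, the highest were Rps21 (66410) and Rpl11 (60520). The 3 lowest were Rps15a (3539), Rpl22 (7622) and Rps27l (8201), against a median of 36625 for the 75. The exon model of Rps15a holds 5134 bases, the longest of the 75, and its mean normalized count before division by length was 18169. The 75 genes made up 48 of the 100 single-name features with the highest mean per kb, where the median feature with a mean of at least 10 stood at 490. Both subunits had nearly the same median level per kb, 36776 for the small and 36625 for the large subunit.

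The other 4 genes are paralogues of narrow tissue expression. Rpl39l, a form of Rpl39 known from testis, had a mean of 0, and Rpl10l, the testis copy of Rpl10, had a mean of 0.039. The means of Rps4l and of Rpl3l, the muscle form of Rpl3, were 2.09 and 6.94. These 4 had no adjusted p-value in 16T and KP1. Rps4l and Rpl3l had one in KP22, where neither passed.

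**Figure D1:**
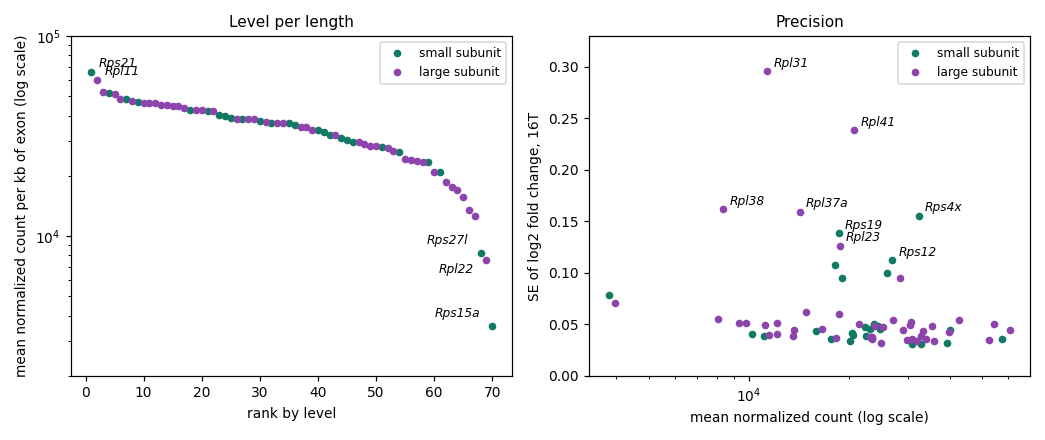
Left, mean normalized count per kb of exon (log scale) of 70 of the expressed ribosomal protein genes in rank order; right, the SE of the log2 fold change in 16T against mean normalized count (log scale). Rps15a, Rpl22 and Rps27l lie below the rest on the left, and 12 genes, led by Rpl31 (0.296) and Rpl41 (0.239), have SEs of at least 0.09 on the right.

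Not all of these abundant transcripts were measured with like precision. The median SE was 0.045 in each line, but 12 genes had an SE of at least 0.09, among them Rpl31, Rpl41, Rpl38, Rpl37a, Rps4x, Rps19 and Rps12. Of these 12, 4 were called in any line, against 49 of the other 63. At a given change, a wider SE makes a call less likely. Of all features tested in the 3 lines, 28.5% were called in none. Rpl31, at the exit of the peptide tunnel, was at -0.58 ± 0.30 in KP22 (adjusted p = 0.123) over the 239 exon bases listed under its single name. Its 405 bases under a joined name made only of Rpl31 were at 0.14 ± 0.06 there (adjusted p = 0.061), the other sign, and neither passed. Ribosomal protein genes have many processed copies in the genome, and how reads shared with them were counted is not given in the sources used here.

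In 16T with Nfib lowered, 13 ribosomal protein genes rose and 21 fell of 75. Over all 14504 features tested, 20% rose and 25.3% fell. In total 45.3% of the genes were called, the same share as over all features, while 64.4% of the 2426 other features with a mean of at least 5000 were called. The median was -0.0097, against -0.051 for all features tested. With 16T recentred on all features, 21 rose and 14 fell, so which direction was the more frequent depends on the centring.

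The gene that fell most in 16T was Rps27l, a paralogue of Rps27 known as a target of p53, which all 3 lines lack. It was at -0.66 ± 0.08, so the transcript fell by 36.6% (adjusted p = 6.17e-16). Rps2, which lines the mRNA entry channel, followed at -0.45 ± 0.05 (adjusted p = 2.97e-22). Rpsa, which lies at the mRNA exit and is also known as the laminin receptor, fell by 0.35 on the log2 scale, and Rplp1 of the stalk fell by 0.33. Rpl13a fell too (-0.23). Rps19, the gene most often mutated in Diamond-Blackfan anaemia, was at -0.37 ± 0.14 and Rps12 at -0.27 ± 0.11. Both calls were lost with the line recentred on all features and with a t reference on 6 degrees of freedom (12 samples in 6 groups) in place of the normal one of the deposited p-values.

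Of the genes that rose in 16T, Rpl7 rose by 0.25, Rpl4, whose extension lines the exit tunnel, by 0.24, and Rps15, which touches the tRNAs, by 0.19. Rpl23a, which docks the signal recognition particle at the tunnel exit, rose by 0.17, Rpl26 by 0.16 and Rpl11 by 0.14. The call of Rpl26 was lost with the t reference, which kept 23 of the 34 calls in 16T. No ribosomal protein gene passed the authors' test against an absolute change of 0.5, which 807 of all 14504 features tested passed in 16T. At an unadjusted p below 0.05 in that test, there was 1, Rps27l.

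**Figure D2:**
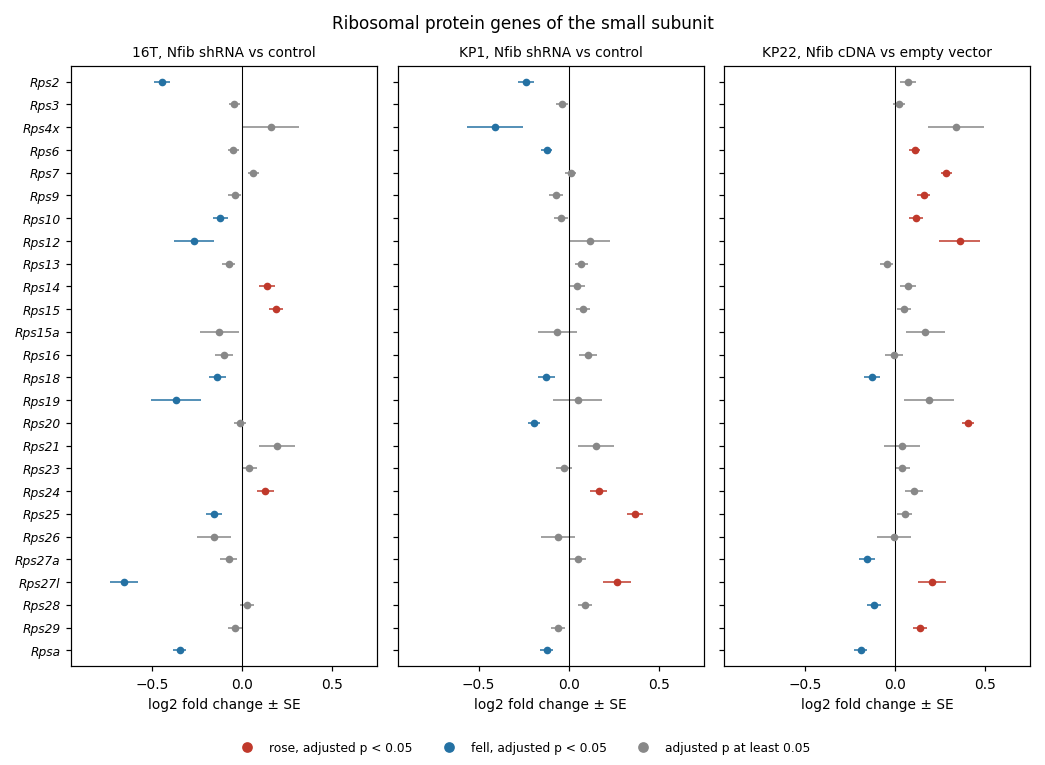
Log2 fold change (horizontal axis, bars are SEs) of 26 small subunit genes in 16T and KP1 with Nfib shRNA and in KP22 with Nfib cDNA. Rps27l is lowest in 16T at -0.66, Rps4x lowest in KP1 at -0.41 and Rps20 highest in KP22 at 0.41.

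In KP1 with Nfib lowered, 5 genes rose and 22 fell of 75, where 17.6% of all features tested rose and 19.6% fell. The share called was 36%, against 37.2% of all features and 53.4% of other features with a mean of at least 5000. The median was -0.041, against -0.017 for all. Recentred on all features, 9 rose and 19 fell, and with the t reference 1 rose and 12 fell.

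Rpl4 stood at the bottom in KP1, at -0.60 ± 0.05 (adjusted p = 2.39e-30), so that its transcript fell by 33.9% where it had risen in 16T. Rps4x, the X-linked form of S4, was at -0.41 ± 0.16 (adjusted p = 0.029), a call lost with the t reference. Rpl18 fell by 0.29, Rps2 and Rpl7 by 0.23 each, and Rpl7a and Rpl3, a protein near the peptidyl transferase centre, by 0.21 each. Rps20 fell by 0.19. Of the genes that rose, Rps25, which some viral mRNAs need to recruit the ribosome, was highest at 0.37 ± 0.04 (adjusted p = 4.94e-16). Rps27l was at 0.27, Rps24 at 0.17 and Rpl14 at 0.12. The calls of these last 3 were lost with the t reference. By the authors' test against 0.5, 0 were called, beside 706 of all 14504 features tested, and 0 had an unadjusted p below 0.05.

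In KP22 with Nfib cDNA, 21 genes rose and 11 fell of 77, against 19.5% and 18.8% of 17544 features tested. The share called was 41.6%, beside 38.4% of all features and 61.8% of other features with a mean of at least 5000. The median was 0.053, against 0.039 for all. Recentred on all features, 12 rose and 13 fell, and with the t reference 13 rose and 4 fell.

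Rps20 rose most in KP22, at 0.41 ± 0.03, and so by 32.6% (adjusted p = 5.2e-32). Rps7, which takes part in processing of the small subunit RNA, rose by 0.28 ± 0.03 (adjusted p = 1.91e-19). Rps12 rose by 0.36 and Rpl12, at the base of the stalk, by 0.26; both have wide SEs (0.11 and 0.095) and both calls were lost with the t reference. Rpl5 and Rps27l rose by 0.20, Rplp2 by 0.19 and Rpl8 by 0.17, and the call of Rps27l was lost with recentring and with the t reference. Among the genes that fell were Rpl23a (-0.20 ± 0.05; adjusted p = 0.000126), Rpsa (-0.19), Rpl36 (-0.16) and Rps27a (-0.16), which encodes S27a fused to ubiquitin. Rps18 (-0.13), Rpl10 (-0.13) and Rps28 (-0.12) fell too, and with the t reference the calls of Rpl36, Rps27a, Rps18 and Rps28 were lost. By the authors' test against 0.5, 0 were called, beside 1264 of all 17544 features tested, and 0 had an unadjusted p below 0.05.

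**Figure D3:**
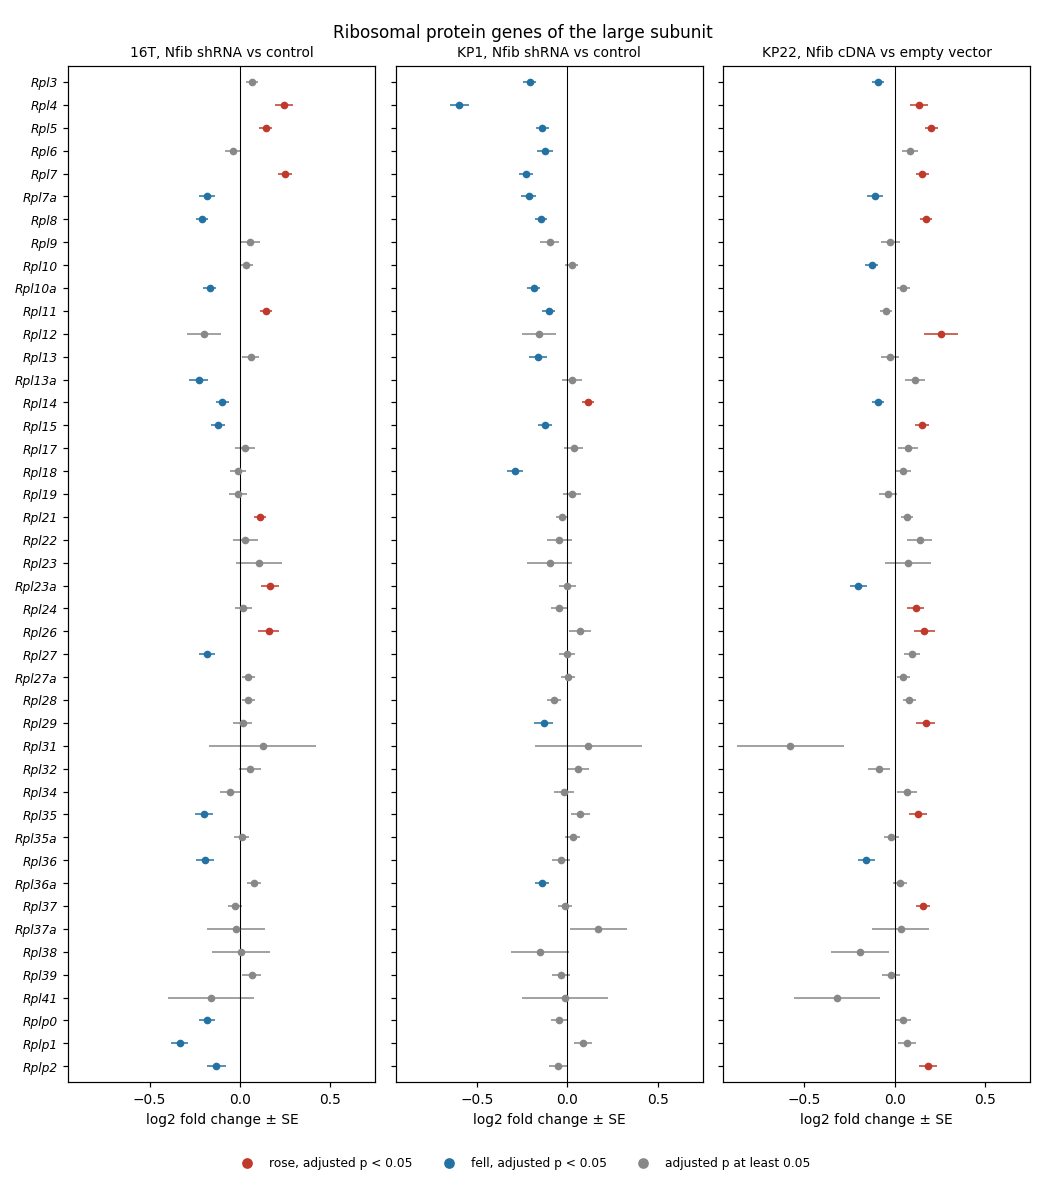
Log2 fold change (horizontal axis, bars are SEs) of 44 large subunit genes in the same 3 comparisons. Rpl4 and Rpl7 lie to the right in 16T (0.24 and 0.25) and to the left in KP1 (-0.60 and -0.23).

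By subunit, the calls were as follows. In 16T, 5 small subunit genes rose and 9 fell of 30, and 8 large subunit genes rose and 12 fell of 45. In KP1 the counts were 4 and 8 for the small and 1 and 14 for the large subunit. In KP22, 9 of 31 small subunit genes rose and 5 fell, and 12 of 46 large subunit genes rose and 6 fell. The shares called in 16T were 46.7% and 44.4%, beside 45.3% of all features, in KP1 40% and 33.3%, beside 37.2%, and in KP22 45.2% and 39.1%, beside 38.4%. No test between subunits was made.

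Within the ribosome, genes for proteins of one site did not always move in one direction. Rpl5 and Rpl11, which join 5S rRNA before it enters the large subunit and which can bind Mdm2, both rose in 16T (0.14 and 0.14) and both fell in KP1 (-0.14 and -0.10). In KP22 Rpl5 rose (0.20) and Rpl11 was at -0.05 (adjusted p = 0.279). The call of Rpl11 in KP1 was lost with the t reference. All 3 stalk genes, whose proteins recruit elongation factors, fell in 16T: Rplp0 to -0.18, Rplp1 to -0.33 and Rplp2 to -0.13, where recentring or the t reference lost the call of Rplp2. In KP1 they were at -0.04, 0.09 and -0.05 and none was called. In KP22 Rplp2 rose (0.19), while Rplp0 was at 0.05 and Rplp1 at 0.07. The shares of the 3 stalk genes called were 100% in 16T, 0% in KP1 and 33.3% in KP22, beside 45.3%, 37.2% and 38.4% of all features.

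At the mRNA entry, Rps2 fell in both knockdown lines, and Rps3 was at -0.04, -0.04 and 0.02 in 16T, KP1 and KP22 with no call. Rps9 was at -0.04 and -0.07 in the knockdown lines and rose in KP22 (0.16). At the mRNA exit, Rpsa fell in all 3 lines. Rps14 rose in 16T alone of the 3 tests (0.14), a call lost with the t reference, Rps28 was called in KP22 alone, and Rps26 was at -0.16, -0.06 and -0.01 with no call.

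Of the proteins that touch the tRNAs, Rps18 fell in all 3 lines (-0.14, -0.12 and -0.13), each call being lost with the t reference. Rps15 rose in 16T (0.19) and was at 0.08 and 0.05 elsewhere. Rps16 was at -0.10, 0.11 and -0.01 and Rps23, which helps to check codon pairing, at 0.04, -0.03 and 0.04, and neither was called in any line. Of the 9 genes for proteins of the exit tunnel and its rim, 3 rose in 16T (Rpl4, Rpl23a and Rpl26) and 1 fell (Rpl35, -0.20). In KP1 only Rpl4 of the 9 was called. In KP22, Rpl4 (0.13), Rpl26 (0.16) and Rpl35 (0.13) rose, which recentring or the t reference undid for all 3, and Rpl23a fell. The shares of the 9 called were 44.4% in 16T, 11.1% in KP1 and 44.4% in KP22, beside 45.3%, 37.2% and 38.4% of all features. Rpl17, Rpl19, Rpl22, Rpl31 and Rpl39 of that rim had no call in any line as single-name features; without Rpl31 they lay between -0.04 and 0.14. Further exons of Rpl22, 1977 bases under a joined name made only of Rpl22, rose in 16T (0.19 ± 0.06; adjusted p = 0.0042).

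For the paralogue pairs, Rps27l was called in every line, while Rps27 has no feature of its own. The exons that Rps27 shares under a joined name with Rps27rt were at -0.01 ± 0.11, 0.04 ± 0.11 and 0.21 ± 0.11 in 16T, KP1 and KP22, with no call. Rpl3 was at 0.07 in 16T (adjusted p = 0.116), fell in KP1 (-0.21) and fell in KP22 (-0.09), where the t reference lost the call. Rpl10 fell in KP22 alone of the 3 tests (-0.13), and Rpl39 was called in none. Of the 18 genes linked to Diamond-Blackfan anaemia that were measured, 4 rose and 5 fell in 16T, 2 rose and 4 fell in KP1, and 7 rose and 2 fell in KP22, with medians of 0.00099, 0.0055 and 0.11. The shares called were 50%, 33.3% and 50%, beside 45.3%, 37.2% and 38.4% of all features.

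The knockdown effect differed between 16T and KP1 for 27 of the 75 genes, being higher in 16T for 15 and lower for 12. Over 15008 features, 14% were called above 0 and 15.5% below 0 in this contrast, which was computed from the deposited effects and SEs with a normal reference. With the t reference there were 13, of which 8 lay above 0. Among the genes that passed, the largest difference was that of Rps27l, at -0.93 with a 95% interval from -1.14 to -0.71 (adjusted p = 1.63e-15). Rpl4 differed by 0.84 the other way (0.70 to 0.98; adjusted p = 7.65e-30). Rps4x followed at 0.57 (0.14 to 0.997; adjusted p = 0.036, lost with the t reference) and Rps25 at -0.53 (-0.65 to -0.41).

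**Figure D4:**
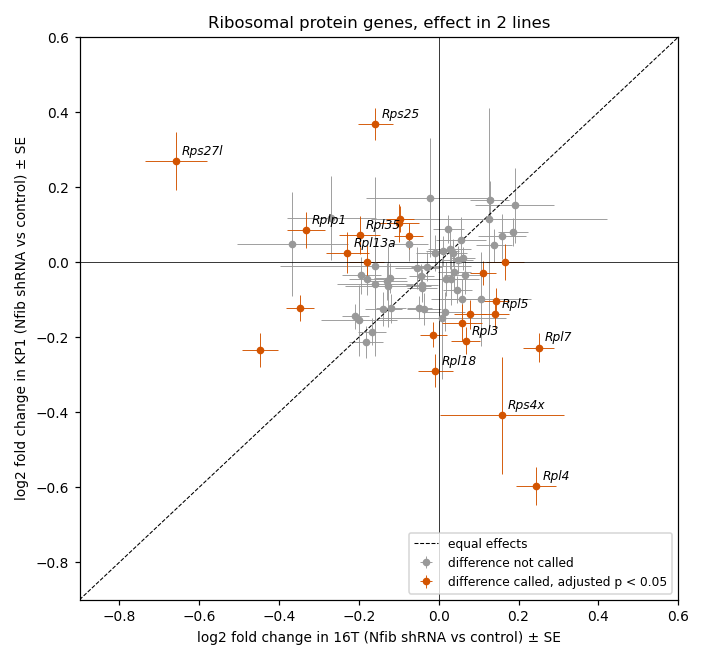
Log2 fold change with Nfib shRNA in 16T (horizontal) and KP1 (vertical) for 70 of the genes, with SEs as bars; the dashed line marks equal effects and orange marks genes whose effects differed at an adjusted p below 0.05. Rps27l and Rps25 lie at the upper left and Rpl4 at the lower right, far from the line.

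Of the 75 genes, 9 were called in opposite directions in the 2 knockdown lines, which 4.54% of all features were. Among them, Rpl4, Rpl5, Rpl7 and Rpl11 rose in 16T and fell in KP1, and Rpl14, Rps25 and Rps27l fell in 16T and rose in KP1. With the t reference 5 were left, Rpl4, Rpl5, Rpl7 and Rps25 among them. Only 2 genes followed Nfib in all 3 lines, against 10.1% of all features. They were Rpl8, at -0.21, -0.14 and 0.17, and Rpl15, at -0.12, -0.12 and 0.15; Rpl8 alone kept all 3 calls with recentring and with the t reference. Another 3 fell in all 3 lines, Rpl7a (-0.18, -0.21 and -0.11), Rps18 and Rpsa (-0.35, -0.12 and -0.19), where 2.26% of features had calls of 1 sign in all 3. With the t reference 0 of the 3 kept every call. A further 22 genes were called in none of the lines, against 28.5% of all features. With the t reference they were 38, a setting for which no share of all features was counted.

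Across the 75 genes, Pearson's r of the log2 fold changes was -0.221 between 16T and KP1 (Spearman's rho -0.079), as a description across genes that share libraries and differ in SE. Over the other 2426 features with a mean of at least 5000 it was 0.471. Between 16T and KP22 it was -0.110 for the ribosomal protein genes and -0.443 for the other features, and between KP1 and KP22 -0.191 and -0.333. Genes are not independent replicates, and no p-value is given.

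When the effects were turned towards higher Nfib and averaged over the 3 lines, 29 of 75 genes were called above 0 and 7 below, where 29.2% and 23.7% of 15008 features were. Recentred on all features, these counts were 20 and 16. Among the genes that passed, the largest mean was that of Rps2, 0.25 ± 0.03 (adjusted p = 1.76e-21), followed by Rps20 and Rpl12 (0.20 each), Rps27l (0.20) and Rpl8 (0.18). A large mean did not require a call in every line. Rps2 was at 0.07 in KP22 and Rps20 at -0.01 in 16T, both with no call there, and Rpl12 was called in KP22 alone. For Rps27l this mean covers lines of opposite sign, since it followed Nfib in 16T and KP22 and not in KP1. Of the genes called below 0, Rpl23a was at -0.12.

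The knockdown mean and the KP22 effect were not mirror images for 22 of 75 genes, 13 with a sum above 0 and 9 below, against 17.7% and 19% of all features. With the t reference there were 13. Among the genes that passed, Rpsa, which fell in every line, had the largest sum, -0.42 (-0.51 to -0.34; adjusted p = 6.57e-21). Rpl31 had a larger sum that did not pass (-0.46; adjusted p = 0.356). Rps7 (0.32), called only where Nfib was raised, came next, then Rpl7a (-0.31), Rps20 (0.30) and Rpl26 (0.28), which rose both with Nfib lowered in 16T and with Nfib raised in KP22.

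Genes whose products make and assemble ribosomes were called mostly in 1 direction within a line. Of 50 assembly factors, 40 fell and 1 rose in 16T, 38 fell and 0 rose in KP1, and 30 rose and 1 fell in KP22, with medians of -0.34, -0.25 and 0.19 against -0.0097, -0.041 and 0.053 for the ribosomal protein genes. In total 82%, 76% and 62% of these factors were called in 16T, KP1 and KP22, beside 45.3%, 37.2% and 38.4% of all features. Rrp12, an export factor for pre-ribosomes, was at -0.81, -0.41 and 0.80. Utp20 of the small subunit processome was at -0.76, -0.42 and 0.72, and Mdn1, the ATPase that strips factors off the large subunit, at -0.54, -0.41 and 0.90. Pno1, which helps to shape the platform of the small subunit, was at -0.77 in 16T and 0.74 in KP22, and at -0.16 in KP1 (adjusted p = 0.11). In KP1 the largest falls were those of Ebna1bp2 (-0.54), Rrs1 (-0.47), a partner of the 5S particle that holds Rpl5 and Rpl11, and Noc3l (-0.47). The exceptions were Sbds, which rose in 16T (0.21), and Eif6, which Sbds helps to release from the large subunit and which fell in KP22 (-0.33).

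Of 14 genes for transcription of ribosomal RNA, 7 fell in 16T, 8 fell in KP1 and 5 rose in KP22, with 0 called the other way in each line. That is 50%, 57.1% and 35.7% of the 14, beside 45.3%, 37.2% and 38.4% of all features. In 16T the largest changes were those of the RNA polymerase I subunits Polr1e (-0.63), Polr1a (-0.51) and Polr1b (-0.44). In KP1 they were Taf1d (-0.34), Polr1a (-0.32) and Taf1a (-0.28), and in KP22 Polr1b (0.38), Taf1c (0.29) and Ubtf (0.27), which encodes the architectural factor of ribosomal RNA genes. Of 8 chaperones that escort single ribosomal proteins, 6 fell in 16T, 4 fell in KP1, and 2 rose and 1 fell in KP22. These calls made up 75%, 50% and 37.5% of the 8, to set beside the same shares of all features. Grwd1, which escorts Rpl3, was at -0.59, -0.25 and 0.34. Heatr3, needed for import of Rpl5, and Tsr2, the escort of Rps26, both fell in 16T (-0.44 and -0.43). Bccip, a partner of Rpl23, fell in both knockdown lines and rose in KP22 (-0.37, -0.32 and 0.21). Aamp fell in KP22 (-0.28).

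**Figure D5:**
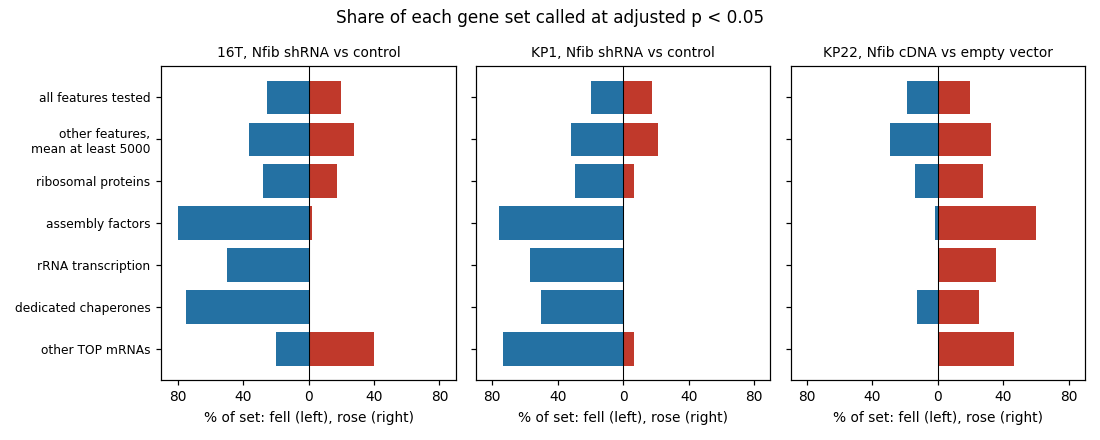
Percent of each gene set that fell (blue, to the left) and rose (red, to the right) at an adjusted p below 0.05, for the 3 comparisons. Assembly factors point left in 16T and KP1 and right in KP22, while ribosomal proteins have bars on both sides, with 13 higher and 21 lower in 16T.

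Other TOP mRNAs differed between the knockdown lines as well. Of 15, 6 rose and 3 fell in 16T, 1 rose and 11 fell in KP1, and 7 rose and 0 fell in KP22. Called were 60%, 80% and 46.7% of them, beside 45.3%, 37.2% and 38.4% of all features. The 15 include Eef1a1, at 0 in every line. They also include Npm1, counted above with the assembly factors, and Nap1l1, counted above with the chaperones. Eef2, an elongation factor, was at 0.37 ± 0.14 in 16T and -0.70 ± 0.14 in KP1, and Eif4b, a helper of the helicase Eif4a, at 0.26 and -0.35. Tpt1 rose in both knockdown lines (0.51 and 0.35). Gas5, which hosts small nucleolar RNAs and has a TOP leader, fell in both and rose in KP22 (-0.46, -0.49 and 0.49). Eif3f rose most but for Gas5 in KP22 (0.45).

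Of 17 regulators of ribosome synthesis and TOP mRNAs, 1 rose and 7 fell in 16T. In KP1, 2 rose and 7 fell, and in KP22, 8 rose and 2 fell. Altogether 47.1%, 52.9% and 58.8% were called, beside 45.3%, 37.2% and 38.4% of all features. Mycl was at -1.27, -1.41 and 1.52, and Mycn fell in KP1 (-1.14) and rose in KP22 (1.11), as did Myc in KP22 (0.83 ± 0.30; adjusted p = 0.017). Larp1, which binds TOP tracts, was at -0.20, -0.26 and 0.29. Rptor, the scaffold of mTOR complex 1, fell in 16T (-0.37) and KP1 (-0.22) and was at -0.01 in KP22. Eif4ebp2, a translation repressor that mTOR inactivates, fell in KP1 (-0.42). Rheb, which activates mTOR, rose in KP1 (0.31), and Deptor (-0.29) and Mlst8 (-0.26), 2 partners of mTOR, fell in KP22. The part of these regulators in the ribosomal protein values was not tested.

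Among ribosomal proteins left out by the naming rule, Gnb2l1, a scaffold on the small subunit head, had the sign order of Rpl4: it rose in 16T (0.22), fell in KP1 (-0.30) and rose in KP22 (0.19). Rps3a1 rose in 16T (0.26) and fell in KP1 (-0.11), and Fau, which encodes S30 fused to a ubiquitin-like protein, rose in 16T (0.21). Rpl7l1 fell in 16T (-0.39) and KP1 (-0.17), and Rpl22l1, a paralogue of Rpl22, fell in 16T (-0.20). For 14 of the 79 genes some exons are listed under joined names. Their values did not always match those of the single name. The Rps27a exons under a joined name fell in 16T (-0.22 ± 0.09; adjusted p = 0.025) and were at 0.13 ± 0.08 in KP22 (adjusted p = 0.228), where Rps27a itself had no call in 16T and fell in KP22. The Rpl5 exons joined with Fam69a were at -0.02 ± 0.06 in 16T (adjusted p = 0.828), where Rpl5 rose by 0.14, and rose in KP22 (0.16) as Rpl5 did. The Rpl35 exons joined with Wdr38 were at -0.20, 0.01 and 0.26, beside -0.20, 0.07 and 0.13 for Rpl35 alone. The Rps25 exons joined with Ccdc84 were at -0.10 ± 0.12 in 16T and 0.05 ± 0.12 in KP1, with no call, beside calls of -0.16 and 0.37 for Rps25.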

How the data were processed

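Per the labels' protocols, total RNA was prepared with a Qiagen kit and made into Illumina TruSeq libraries. TopHat, bedtools, DESeq and DESeq2 and the build mm10 are named in the submitters' processing notes, with neither versions nor settings. Normalization by cqn is named only in the title of the table per the labels. The authors deposited, per feature, a mean normalized count, a signal over their libraries, log2 fold changes with SEs, Wald scores, p-values and adjusted p-values, also for a test against 0.5. No values per sample were used, so the designed fits on counts were replaced by the deposited tests. Exon lengths came from the deposited merged exons (mm10).

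Contrasts were computed from the deposited effects and SEs for 15008 single-name features with a mean of at least 10, errors added as independent, normal reference, Benjamini-Hochberg adjustment, with Python 3.11.15, numpy 2.4.6, pandas 2.3.3 and scipy 1.17.1, and tested on simulated data. Alternatives were recentring, a t reference with 6 degrees of freedom, other filters, the test against 0.5, and joined features. Named were, per line, up to 8 genes called in each direction, the 5 largest of each contrast, extremes of level, the genes of the structural lists, and up to 3 per outside list and direction; Eef1a1, Larp1, Pnpla6 and the joined features were chosen after their values were seen. Members and lists were chosen with earlier results of these data known. Some genes counted here are not reported by name or shown in the plots of single genes.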

Additional observations from a re-analysis of the deposited data

Results flagged for a closer look

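The knockdown effects of 16T and KP1 differed, by the test of the difference, for 27 ribosomal protein genes. These were 36% of the 75 tested, against 29.4% of all features. Among the genes that passed, the largest differences included those of Rps27l (-0.93), Rpl4 (0.84), Rps4x (0.57) and Rps25 (-0.53), on the log2 scale and as 16T minus KP1.

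The mean knockdown effect and the effect of Nfib cDNA in KP22 were not equal and opposite for 22 genes. These were 29.3% of the 75 tested, a smaller share than the 36.7% of all features. Among the genes that passed, the 5 largest sums were those of Rpsa (-0.42), Rps7 (0.32), Rpl7a (-0.31), Rps20 (0.30) and Rpl26 (0.28).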

How the results depend on the processing

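No paired analysis was possible because the table holds results of comparisons and no values per sample; for the same reason no replicate was left out. Recentring on features with a mean of at least 10 moved the rises in 16T from 13 to 21, in KP1 from 5 to 9 and in KP22 from 21 to 12. Recentring on those of at least 1000 gave 20 rises in 16T and 9 in KP1. The averages turned towards higher Nfib that lay below 0 went from 7 to 16 and 14 with these centrings. The median of the genes in 16T turned from -0.0097 to 0.041 and 0.030, and in KP22 it went from 0.053 to 0.0066 on the first. With a t reference on 6 degrees of freedom, 23 of the 34 calls in 16T were kept and 11 were lost. With it, calls in KP1 went from 27 to 13 (1 higher, 12 lower) and in KP22 from 32 to 17 (13 higher, 4 lower). Calls in 16T minus KP1 went from 27 to 13 (8 above 0, 5 below) and in the knockdown mean plus KP22 from 22 to 13 (7 above 0). The authors' test against 0.5 called 0 in each line, beside 807, 706 and 1264 of all features in 16T, KP1 and KP22. Of 108 single values, 41 lost their call with the t reference, 19 and 13 with the recentrings and 1 with no filter on the mean. Their direction could not turn under these settings, so it is no check of them. The t reference and the filters leave the log2 fold changes as they are. The recentrings shifted a line by at most 0.051, and the smallest called change in a line was -0.092 (Rpl3 in KP22). Precision is set by the authors' SEs; the depth per library is unknown here.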
